A study of Homo sapiens with 12 samples.

Results

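The genes described here are 36 genes of the unfolded protein response and of protein folding in the endoplasmic reticulum (ER), chosen by name. The choice was made with earlier results of these data known. All 36 were measured, among 17958 genes compared on 12 Affymetrix Human Gene ST arrays, each gene by the probe set with the highest mean signal among those with 1 gene symbol. The cells were 231BR cells, which derive from the human breast cancer line MDA-MB-231 and home to the brain, and they carried EGFP so that they could be sorted away from mouse astrocytes. The 4 groups of 3 arrays were vehicle without astrocytes (vehicle alone), 10 nM estradiol without astrocytes (estradiol alone), vehicle with mouse astrocytes, and 10 nM estradiol with mouse astrocytes, the co-cultures being sorted after 24 h. All groups came from this 1 cell line. The labels state neither how pure the sorted cells were nor whether the arrays of a group came from separate cultures. The p-values therefore cover only the spread among these samples, and that spread may be technical. The number of arrays limits the precision, since arrays have no read depth.

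Secreted and membrane proteins fold in the ER, where chaperones hold unfolded chains, lectin chaperones bind their sugars, and disulfide isomerases and oxidases form their disulfide bonds. When unfolded protein builds up, the sensors IRE1 (gene ERN1), PERK (EIF2AK3) and ATF6 are released from the chaperone BiP (HSPA5). IRE1 splices the mRNA of the transcription factor XBP1, PERK slows translation and favours ATF4, and cleaved ATF6 moves to the nucleus, so that chaperone and degradation genes are transcribed. Chains that do not fold are drawn back through the membrane and degraded by the proteasome, a route called ER-associated degradation. Each probe set gives 1 signal for a gene, so XBP1 splicing was not measured.

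Promoters of this response carry short DNA elements, and the sequences are shown here as a feature of these genes that does not depend on the arrays. RefSeq promoters of GRCh38.p14, from 250 bases before to 50 after the start site, were found for 32 of the 36 genes (all but PDIA3, DERL1, DERL3 and SEC24D) and searched on both strands. The ER stress response element ERSE, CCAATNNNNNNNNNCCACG, which ATF6 binds with the CCAAT factor NF-Y, was present in 7 of the 32 (21.9%), namely XBP1, HSPA5, HSP90B1, CRELD2, CALR, CANX and ERO1B, and in 22 of 27305 promoters in all (0.0806%). Its short form ERSE-II, ATTGGNCCACG, was present in HYOU1, SDF2L1 and HERPUD1 (9.38%) and in 0.0549% of all promoters. The core of the unfolded protein response element bound by XBP1, TGACGTGG, was present in HYOU1 and DNAJC10 (6.25%) and in 0.795% of all promoters, and in HYOU1 it overlapped 1 of the 2 ERSE-II matches. Any of the 3 was present in 11 of 32 genes (34.4%) and in 0.927% of all promoters. A match is a run of letters and not a tested binding site.

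Stretches around the matches are given for HSP90B1 and CANX (chaperones whose signal fell with astrocytes), XBP1 (the factor itself), CRELD2 (the 1 member whose signal rose) and HYOU1 (which holds both kinds of element), 5′ to 3′ on the strand of the gene, with the match in capitals. The HSP90B1 site shown is the farther of 2 from the start site.
XBP1 ERSE, chr22:28800593-28800631, minus strand: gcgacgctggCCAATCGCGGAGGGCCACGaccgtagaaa
HSP90B1 ERSE, chr12:103930206-103930244, plus strand: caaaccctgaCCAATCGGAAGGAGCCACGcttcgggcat
CANX ERSE, chr5:179698768-179698806, plus strand: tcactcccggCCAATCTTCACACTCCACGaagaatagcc
CRELD2 ERSE in the opposite orientation, chr22:49918544-49918582, plus strand: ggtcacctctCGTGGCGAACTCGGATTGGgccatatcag
HYOU1 ERSE-II in the opposite orientation, chr11:119057264-119057294, minus strand: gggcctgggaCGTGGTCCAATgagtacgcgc

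The 250 bases before the start site are printed for HSPA5 and HERPUD1, whose signals fell with astrocytes, and for CALR, which did not pass the test, again with the matches in capitals. The ERSE of HSPA5 lay from −66 to −48 relative to its start site, the ERSE-II of HERPUD1 from −117 to −107, and the ERSE of CALR, in the opposite orientation, from −225 to −207.
HSPA5, chr9:125241344-125241593, minus strand: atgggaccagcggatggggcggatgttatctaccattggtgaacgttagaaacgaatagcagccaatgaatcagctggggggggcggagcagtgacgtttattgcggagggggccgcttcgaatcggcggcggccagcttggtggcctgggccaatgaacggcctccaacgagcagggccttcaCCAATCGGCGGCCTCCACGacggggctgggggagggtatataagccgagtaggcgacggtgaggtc
HERPUD1, chr16:56931892-56932141, plus strand: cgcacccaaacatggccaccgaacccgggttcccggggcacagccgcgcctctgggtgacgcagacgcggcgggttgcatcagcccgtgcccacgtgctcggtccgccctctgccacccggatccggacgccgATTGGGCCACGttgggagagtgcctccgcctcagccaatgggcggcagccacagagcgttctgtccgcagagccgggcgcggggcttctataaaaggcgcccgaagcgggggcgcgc
CALR, chr19:12938359-12938608, plus strand: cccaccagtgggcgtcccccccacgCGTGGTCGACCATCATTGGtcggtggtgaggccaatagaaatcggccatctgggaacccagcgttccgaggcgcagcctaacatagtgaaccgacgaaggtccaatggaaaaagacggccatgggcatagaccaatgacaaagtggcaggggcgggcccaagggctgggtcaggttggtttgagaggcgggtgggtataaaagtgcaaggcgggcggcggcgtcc

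The arrays differed in their range of signal along with the groups. The SD of the log2 signal within an array was on average 2.14 ± 0.094 (SD, n = 3) for vehicle alone, 2.16 ± 0.042 in estradiol alone, 1.94 ± 0.11 in vehicle with astrocytes and 1.89 ± 0.24 in estradiol with astrocytes. The narrowest array, at an SD of 1.62, was the second replicate of estradiol with astrocytes, which stood apart from the rest. Its 17958 genes correlated at r from 0.558 to 0.674 with the arrays without astrocytes, which correlated with each other at 0.967 or more. The range of signal and the presence of astrocytes moved together. Counts and medians with this array left out are given with the results, as are differences of called genes with the array SD in the fit.

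Signals of most of the 36 genes were lower in cells that had been with astrocytes. The mean log2 signal of the 36 was 8.01, 7.88 and 7.57 on the arrays of vehicle alone, 7.93, 7.73 and 7.92 in estradiol alone, 7.37, 6.70 and 6.85 in vehicle with astrocytes, and 7.45, 5.83 and 6.98 in estradiol with astrocytes. Every array with astrocytes lay below every array without. The mean over all genes lay between 5.09 and 5.30 on all 12 arrays. In the average of both astrocyte comparisons, called here the mean of both (6 arrays against 6, adjusted over all genes in limma at 0.05), 25 of the 36 genes fell, among 23.0% of all genes that fell, and 1, CRELD2, rose, among 24.5% that rose. The median log2 difference of the 36 was −1.01, against 0.07 for all genes. Of the 36, 34 lay above the median level of all genes, and the 8979 genes above it had a median of −0.48, with 3370 lower (37.5%) and 1013 higher. A lower signal from fewer cells with the RNA and from less RNA in each cell cannot be told apart.

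Taken 1 treatment at a time, fewer of the 36 genes were called. Under estradiol, 10 of the 36 genes fell (8.15% of all genes fell) and CRELD2 rose (5.03% of all genes rose), with a median of −1.18 for the 36. Under vehicle, 0 of the 36 passed in limma, where 0.0390% of all genes fell and 0.0167% rose, although 14 of the 36 were lower at an unadjusted p under 0.05 (15.1% of all genes) and the median was −0.76. Signals of the 2 groups did not overlap for 23 genes that were lower under vehicle (18.4% of all genes) and 1 that was higher, SEC61B (23.4%). Under estradiol they did not overlap for 24 that were lower (23.9%) and for CRELD2, which was higher (27.0%). With both treatments together, 19 genes had all 6 arrays with astrocytes below all 6 without (11.3% of all genes). The shares were larger among genes above the median level, where most of the 36 lay. Of those genes 13.7% fell under estradiol, and 23.4% were lower under vehicle at an unadjusted p under 0.05 in limma. Without overlap, 29.8% of them were lower under vehicle, 39.4% under estradiol and 19.3% with both treatments together. The difference between the 2 astrocyte comparisons was itself tested as an interaction, and 0 of the 36 passed (0.00% of all genes in either direction), with none at an unadjusted p under 0.05.

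**Figure D1:**
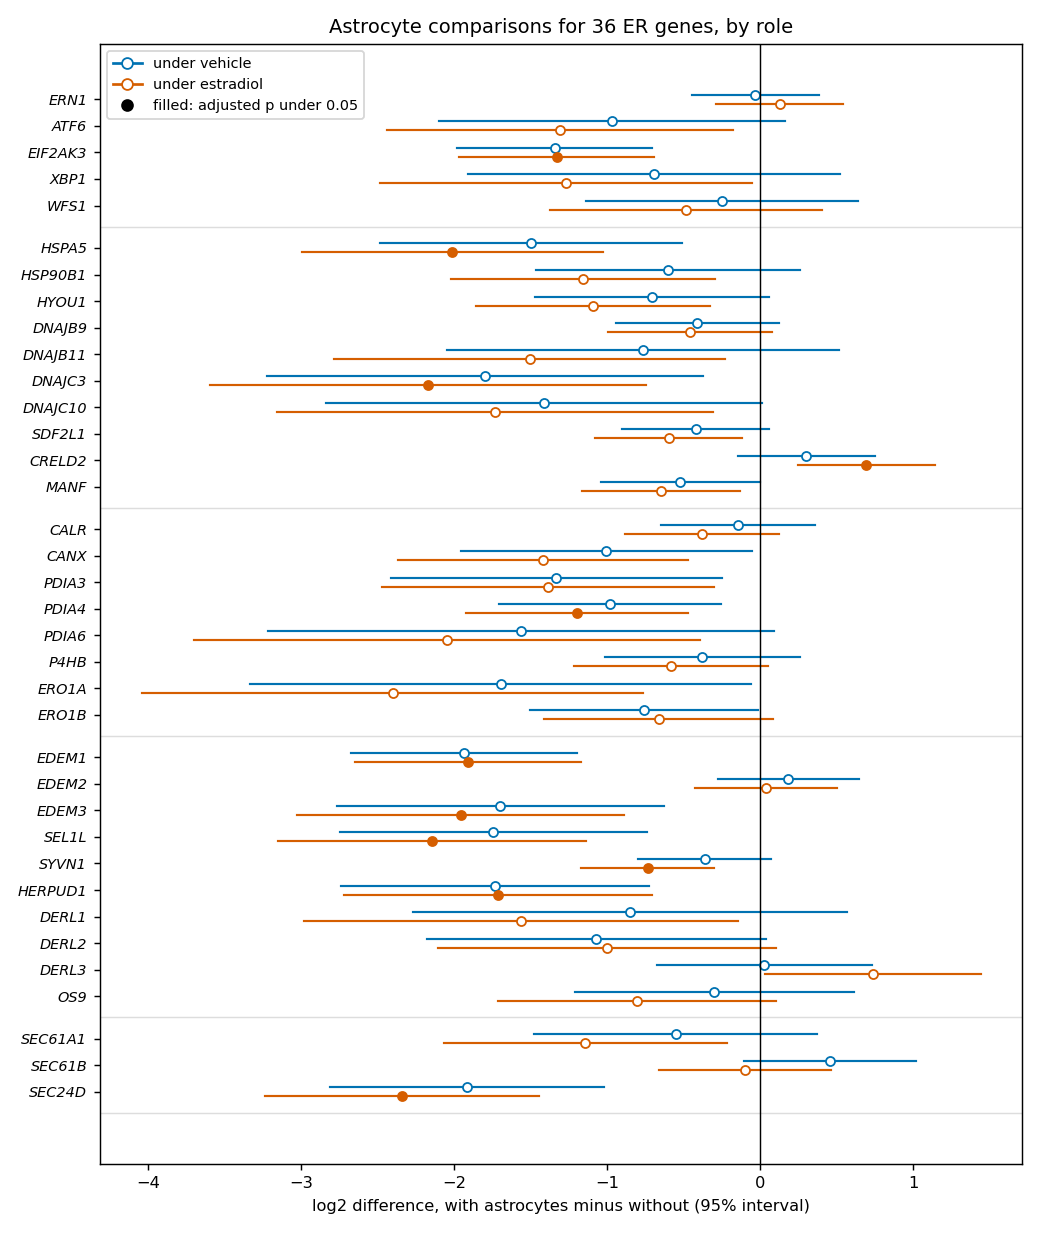
The log2 difference with astrocytes minus without is plotted for the 36 genes by role, under vehicle and under estradiol, with its 95% interval from the limma fit; filled points passed an adjusted p of 0.05. The 10 genes that fell under estradiol and CRELD2, which rose, are filled, no point under vehicle is, and ERN1, EDEM2, SEC61B and DERL3 lie near or above 0.

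Of the sensors and regulators, 2 of 5 fell in the mean of both astrocyte comparisons, near the 37.5% of all genes above the median level, and their median was −0.98. EIF2AK3, which encodes PERK, gave log2 signals of 6.30, 6.33 and 5.72 in vehicle alone, 6.32, 6.03 and 6.26 in estradiol alone, 5.25, 4.71 and 4.36 in vehicle with astrocytes and 5.37, 4.71 and 4.53 in estradiol with astrocytes. The groups with and without astrocytes did not overlap. EIF2AK3 fell 2.53-fold in the mean of both comparisons (log2 difference −1.34, SE 0.21, adjusted p = 0.00331 in limma), with differences of −1.34 under vehicle (adjusted p = 0.0763) and −1.33 under estradiol (adjusted p = 0.0345).

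ATF6, the sensor that is cut to a transcription factor, stood at 8.31, 8.22 and 7.56 in vehicle alone, 8.34, 7.75 and 8.29 in estradiol alone, 7.51, 6.34 and 7.35 in vehicle with astrocytes and 7.83, 5.49 and 7.15 in estradiol with astrocytes. Replicate 2 was the lowest array of both astrocyte groups, and replicate 1 of estradiol with astrocytes overlapped the arrays without. ATF6 fell 2.20-fold in the mean of both comparisons (−1.14, SE 0.37, adjusted p = 0.0274 in limma), and with the array SD in the fit its difference was 0.070. XBP1 gave 8.01, 8.02 and 7.75 in vehicle alone, 8.24, 7.88 and 8.03 in estradiol alone, 7.45, 6.89 and 7.36 in vehicle with astrocytes and 7.89, 5.04 and 7.41 in estradiol with astrocytes. In that last group replicate 2 lay far below the others, and the difference of −0.98 (SE 0.39) did not pass (adjusted p = 0.0566); it turned to 0.25 with the array SD in the fit.

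WFS1, an ER membrane protein that restrains the response, did not pass (−0.37, adjusted p = 0.284), with 8.42, 8.20 and 8.19 in vehicle alone, 8.23, 8.29 and 8.28 in estradiol alone, 8.28, 7.45 and 8.32 in vehicle with astrocytes and 8.37, 6.65 and 8.34 in estradiol with astrocytes. Replicate 2 of either astrocyte group was again the low array, and the other 4 arrays with astrocytes lay among those without. ERN1, which encodes IRE1, had 5.76, 5.84 and 6.03 in vehicle alone, 5.68, 5.88 and 5.62 in estradiol alone, 5.86, 5.91 and 5.77 in vehicle with astrocytes and 5.62, 6.14 and 5.80 in estradiol with astrocytes. All groups overlapped, and the difference was 0.047 with a 95% interval from −0.25 to 0.34 (adjusted p = 0.772); it turned to −0.20 with the array SD in the fit.

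**Figure D2:**
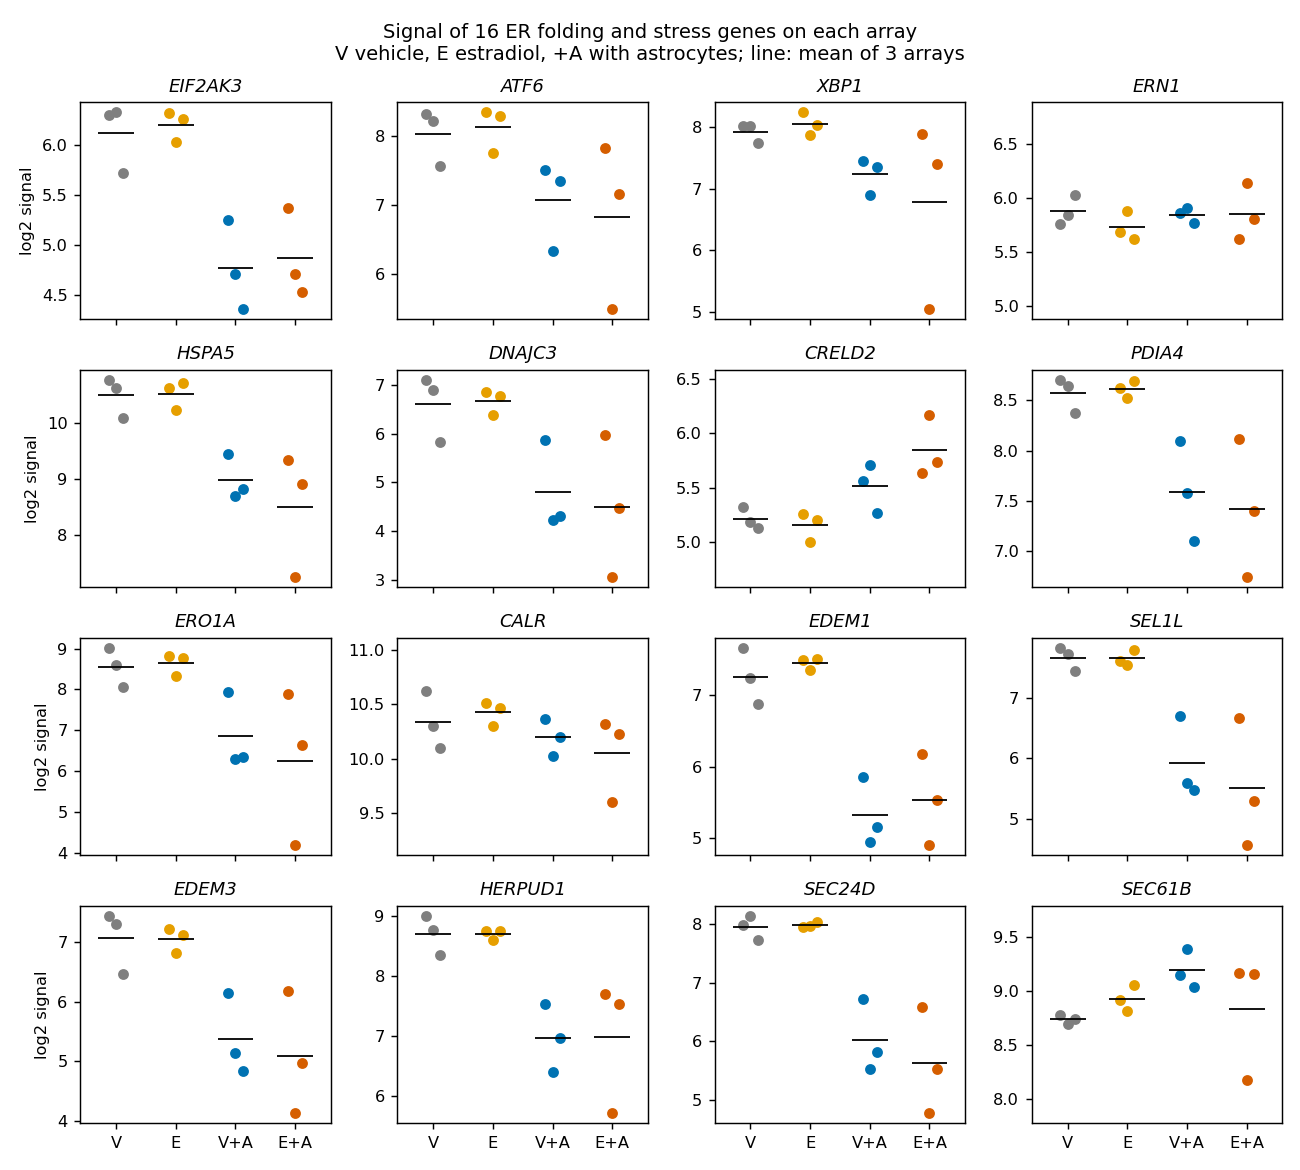
The log2 signal of 16 of the genes is plotted on each of the 12 arrays, by group, with the group mean as a line; V is vehicle, E estradiol and +A with astrocytes. EIF2AK3, HSPA5, PDIA4, EDEM1, SEL1L, EDEM3, HERPUD1 and SEC24D have all 6 arrays with astrocytes below all 6 without, ERN1 is level, and CRELD2 is higher with astrocytes.

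In the mean of both comparisons, 8 of 10 chaperones of the HSP70 and HSP90 families and their partners fell and 1 rose. Of all genes, 23.0% fell and 24.5% rose, and of those above the median level 37.5% fell. DNAJB9 did not pass (adjusted p = 0.0554 in limma). HSPA5, the main HSP70 chaperone of the ER and a standard readout of the response, gave 10.76, 10.61 and 10.08 in vehicle alone, 10.61, 10.22 and 10.70 in estradiol alone, 9.44, 8.69 and 8.82 in vehicle with astrocytes and 9.34, 7.25 and 8.91 in estradiol with astrocytes. No array with astrocytes reached any array without. HSPA5 fell 3.38-fold in the mean of both comparisons (−1.76, SE 0.32, adjusted p = 0.00446 in limma), with differences of −1.50 under vehicle (adjusted p = 0.0967) and −2.01 under estradiol (adjusted p = 0.0351).

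DNAJC3, a J-domain partner of BiP that also inhibits PERK, had 7.09, 6.89 and 5.82 in vehicle alone, 6.85, 6.38 and 6.78 in estradiol alone, 5.87, 4.23 and 4.31 in vehicle with astrocytes and 5.96, 3.05 and 4.48 in estradiol with astrocytes. Replicate 1 of each astrocyte group was the highest of its group and lay just above replicate 3 of vehicle alone. DNAJC3 fell 3.96-fold (−1.99, SE 0.46, adjusted p = 0.00908 in limma), and no longer passed with the array SD in the fit (−0.52, adjusted p = 0.165). HYOU1, an HSP110-type chaperone that exchanges the nucleotide of BiP, gave 8.73, 8.62 and 8.56 in vehicle alone, 8.80, 8.54 and 8.67 in estradiol alone, 8.08, 7.67 and 8.03 in vehicle with astrocytes and 8.25, 6.57 and 7.90 in estradiol with astrocytes, with no overlap between arrays with and without astrocytes. HYOU1 fell 1.87-fold (−0.90, adjusted p = 0.0159 in limma). MANF, a secreted ER protein induced by stress, gave 7.65, 7.62 and 7.50 in vehicle alone, 7.63, 7.66 and 7.71 in estradiol alone, 6.93, 6.94 and 7.33 in vehicle with astrocytes and 7.48, 6.53 and 7.05 in estradiol with astrocytes. Again no arrays overlapped, and MANF fell 1.50-fold (−0.59, adjusted p = 0.0183 in limma).

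CRELD2, a secreted ER protein with a role in folding, went the other way. Its signals were 5.32, 5.18 and 5.12 in vehicle alone, 5.25, 4.998 and 5.20 in estradiol alone, 5.56, 5.71 and 5.26 in vehicle with astrocytes and 5.63, 6.17 and 5.74 in estradiol with astrocytes, so that under estradiol the groups did not overlap and replicate 2 was the highest. CRELD2 rose 1.41-fold in the mean of both comparisons (0.50, SE 0.14, adjusted p = 0.0191 in limma). Centring each array on its median moved the median of all genes from 0.07 to −0.10, and CRELD2, at 0.33, then no longer passed (adjusted p = 0.0562), nor did it with the array SD in the fit (0.31, adjusted p = 0.207). The other 4 genes that fell were DNAJC10 (−1.58), DNAJB11 (−1.14), HSP90B1 (−0.88), which encodes the ER form of HSP90, and SDF2L1 (−0.51), with adjusted p from 0.0196 to 0.0418. With the array SD in the fit these 4 no longer passed: DNAJC10 went to −0.037, HSP90B1 to −0.033 and SDF2L1 to −0.36, and DNAJB11 turned to 0.22. HYOU1 and MANF, at −0.17 and −0.22, did not pass in that fit either.

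Of the 8 lectin chaperones and disulfide enzymes, 6 fell in the mean of both comparisons and 2 did not pass. There 23.0% of all genes fell, and 37.5% of those above the median level. PDIA4, a disulfide isomerase, had 8.70, 8.65 and 8.38 in vehicle alone, 8.62, 8.52 and 8.70 in estradiol alone, 8.09, 7.58 and 7.10 in vehicle with astrocytes and 8.11, 6.74 and 7.40 in estradiol with astrocytes, again with no overlap. It fell 2.13-fold (−1.09, SE 0.23, adjusted p = 0.00704 in limma). CANX, the membrane-bound lectin chaperone calnexin, gave 10.35, 10.43 and 10.05 in vehicle alone, 10.17, 10.07 and 10.28 in estradiol alone, 9.54, 9.35 and 8.93 in vehicle with astrocytes and 9.59, 7.46 and 9.20 in estradiol with astrocytes, and fell 2.32-fold (−1.21, adjusted p = 0.0122 in limma).

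PDIA3, the isomerase that works with the lectin chaperones, had 8.74, 8.38 and 8.06 in vehicle alone, 8.50, 8.06 and 8.25 in estradiol alone, 7.69, 6.66 and 6.83 in vehicle with astrocytes and 7.76, 5.50 and 7.38 in estradiol with astrocytes. The array groups did not overlap, and PDIA3 fell 2.57-fold (−1.36, adjusted p = 0.0129 in limma). ERO1A, the oxidase that recharges the isomerases, spread widely among the arrays with astrocytes: it gave 9.01, 8.59 and 8.06 in vehicle alone, 8.82, 8.33 and 8.77 in estradiol alone, 7.93, 6.29 and 6.35 in vehicle with astrocytes and 7.88, 4.19 and 6.64 in estradiol with astrocytes. It fell 4.14-fold (−2.05, SE 0.53, adjusted p = 0.013 in limma), and its difference was −0.31 with the array SD in the fit.

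PDIA6 (−1.81, adjusted p = 0.0205 in limma) and ERO1B (−0.71, adjusted p = 0.0327) also fell. With the array SD in the fit no gene of this role group passed: PDIA6 went to −0.053, ERO1B to −0.17, PDIA3 to −0.24, CANX to −0.33 and PDIA4 to −0.50 (adjusted p = 0.107). CALR, the soluble lectin chaperone calreticulin, differed by −0.26 (SE 0.16, adjusted p = 0.185), from 10.34 ± 0.26 (SD, n = 3) to 10.20 ± 0.17 under vehicle and from 10.43 ± 0.11 to 10.05 ± 0.39 under estradiol, with overlapping groups. P4HB, the classical disulfide isomerase, differed by −0.48 (adjusted p = 0.0701) although no array with astrocytes overlapped those without. Its other probe set differed by −0.62 under vehicle and −0.995 under estradiol, against −0.38 and −0.58 for the one used. Differences of CALR and P4HB turned to 0.14 and 0.078 with the array SD in the fit, as did those of OS9 (0.34) and WFS1 (0.48), and none of these passed.

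In ER-associated degradation, 7 of 10 genes fell in the mean of both comparisons, and 5 of these fell under estradiol taken alone. The shares of all genes that fell were 23.0% and 8.15%, and of genes above the median level 37.5% and 13.7%. EDEM1, a lectin that hands misfolded glycoproteins to degradation, had 7.66, 7.25 and 6.88 in vehicle alone, 7.50, 7.36 and 7.51 in estradiol alone, 5.86, 4.95 and 5.17 in vehicle with astrocytes and 6.18, 4.91 and 5.54 in estradiol with astrocytes. The lowest array without astrocytes lay above the highest with them. EDEM1 fell 3.80-fold in the mean of both comparisons (−1.93, SE 0.24, adjusted p = 0.00216 in limma). The 2 probe sets of EDEM1 disagreed, since the dimmer one differed by only 0.013 under vehicle and −0.15 under estradiol, against −1.94 and −1.91 for the one used.

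SEL1L, the adaptor of the membrane ubiquitin ligase, gave 7.82, 7.73 and 7.44 in vehicle alone, 7.62, 7.54 and 7.80 in estradiol alone, 6.69, 5.58 and 5.48 in vehicle with astrocytes and 6.66, 4.56 and 5.29 in estradiol with astrocytes. It fell 3.85-fold with no overlap (−1.94, SE 0.33, adjusted p = 0.00384 in limma). SYVN1, the ligase itself, fell less, by 0.55 (adjusted p = 0.0127 in limma), and no longer passed with the array SD in the fit (−0.30). EDEM3, a mannose-trimming relative of EDEM1, had 7.44, 7.31 and 6.47 in vehicle alone, 7.22, 6.82 and 7.11 in estradiol alone, 6.15, 5.13 and 4.83 in vehicle with astrocytes and 6.19, 4.13 and 4.97 in estradiol with astrocytes, and fell 3.55-fold (−1.83, SE 0.34, adjusted p = 0.00487 in limma).

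HERPUD1, a membrane protein of the ligase complex and a known target of the response, gave 8.999, 8.76 and 8.34 in vehicle alone, 8.74, 8.60 and 8.75 in estradiol alone, 7.53, 6.41 and 6.96 in vehicle with astrocytes and 7.70, 5.72 and 7.54 in estradiol with astrocytes. The groups did not overlap, and HERPUD1 fell 3.30-fold (−1.72, SE 0.33, adjusted p = 0.00487 in limma), with differences of −1.73 under vehicle and −1.72 under estradiol. The derlins DERL2 (−1.04, adjusted p = 0.0352 in limma) and DERL1 (−1.21, adjusted p = 0.048), membrane proteins of the channel that returns chains to the cytosol, fell with SEs of 0.36 and 0.46, and their differences turned to 0.11 and 0.25 with the array SD in the fit. The lectin OS9 did not pass (−0.55, adjusted p = 0.129).

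Values of 2 degradation genes opposed the rest without passing. EDEM2, a mannosidase of the same family, had 6.54, 6.37 and 5.96 in vehicle alone, 6.41, 6.21 and 6.42 in estradiol alone, 6.26, 6.58 and 6.59 in vehicle with astrocytes and 6.52, 6.13 and 6.50 in estradiol with astrocytes, with a difference of 0.11 (adjusted p = 0.534) that turned to −0.053 with arrays centred on their medians. DERL3 had 4.51, 4.72 and 5.32 in vehicle alone, 4.39, 5.13 and 4.66 in estradiol alone, 4.65, 4.92 and 5.06 in vehicle with astrocytes and 4.85, 6.02 and 5.52 in estradiol with astrocytes. Its difference of 0.38 (adjusted p = 0.169) came mostly from replicate 2 and replicate 3 of estradiol with astrocytes, and turned to −0.21 with the array SD in the fit.

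Translocation into the ER and export from it were held by 3 genes. SEC24D, a cargo adaptor of the COPII coat that carries proteins from the ER, had the lowest difference of the 36 in the mean of both comparisons, with 7.98, 8.13 and 7.72 in vehicle alone, 7.94, 7.97 and 8.03 in estradiol alone, 6.73, 5.53 and 5.82 in vehicle with astrocytes and 6.59, 4.78 and 5.53 in estradiol with astrocytes. No arrays overlapped, and SEC24D fell 4.37-fold (−2.13, SE 0.29, adjusted p = 0.00246 in limma), with differences of −1.92 under vehicle and −2.34 under estradiol.

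SEC61A1, the pore of the translocon, had 9.63, 9.38 and 9.17 in vehicle alone, 9.58, 9.24 and 9.59 in estradiol alone, 9.16, 8.45 and 8.92 in vehicle with astrocytes and 9.04, 7.10 and 8.83 in estradiol with astrocytes. It fell 1.80-fold (−0.85, adjusted p = 0.0377 in limma), with a difference of 0.095 once the array SD was in the fit. SEC61B, a small subunit of the same channel, gave 8.77, 8.69 and 8.74 in vehicle alone, 8.91, 8.81 and 9.06 in estradiol alone, 9.15, 9.39 and 9.04 in vehicle with astrocytes and 9.16, 8.18 and 9.16 in estradiol with astrocytes. It was higher on every array of vehicle with astrocytes than in vehicle alone (0.46, adjusted p = 0.244) and overlapped under estradiol (−0.10), and it did not pass in the mean of both comparisons (0.18, adjusted p = 0.405). With the low replicate 2 of estradiol with astrocytes left out, SEC61B rose in the mean of both comparisons (0.34, adjusted p = 0.0273 in limma). It then also passed under vehicle (adjusted p = 0.0385), and did not under estradiol (0.23, adjusted p = 0.361).

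The level of the 36 genes followed the range of signal of the arrays, also within groups. Replicate 2 of estradiol with astrocytes held both the lowest SD (1.62) and the lowest mean of the 36 genes (5.83), and replicate 2 of vehicle with astrocytes came second in both (1.82 and 6.70). Replicate 3 was the lowest of vehicle alone in both measures (2.04 and 7.57). Replicate 1 of each astrocyte group, with SDs of 2.04 and 2.10, had the highest mean of its group (7.37 and 7.45), below every array without astrocytes. No p is given, since the points share their groups. A lower difference at a higher level was not particular to the 36 genes, of which 34 lay above the median level of all genes. Over all 17958 genes, the level without astrocytes correlated with the difference in the mean of both comparisons at r = −0.631. Over the 36 genes r was −0.318. The arrays without astrocytes enter both the level and the difference, so part of each r is built in. Neither r relates a gene to the array SD.

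**Figure D3:**
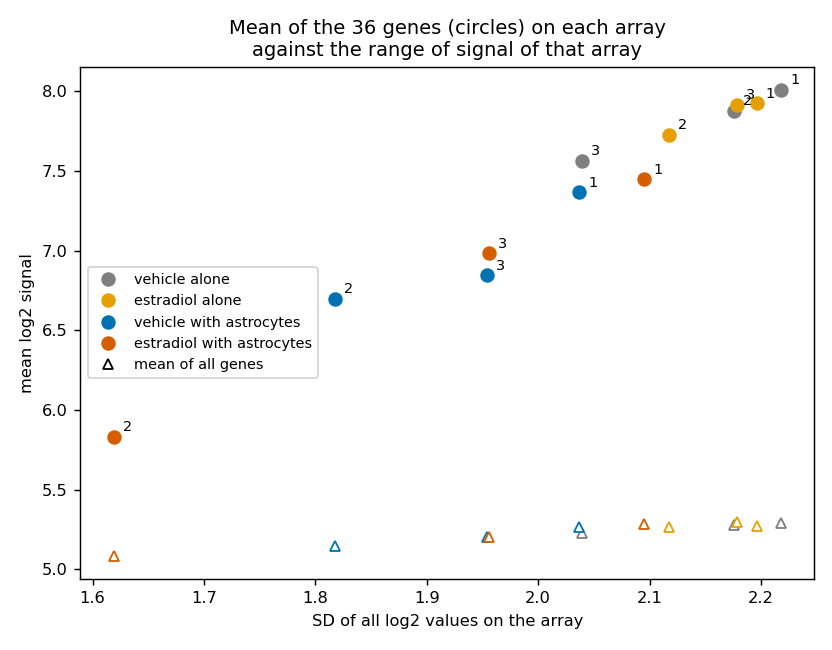
The mean log2 signal of the 36 genes (circles) and of all genes (triangles) on each array is plotted against the SD of all log2 values on that array, with replicate numbers beside the circles. The circles run from 5.83 at an SD of 1.62 to 8.01 at 2.22, while the triangles stay between 5.09 and 5.30. Of the 36 genes, 34 lay above the median level of all genes.

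With the array SD as a covariate in the fit, 7 of the 36 genes still fell in the mean of both astrocyte comparisons, where 5.82% of all genes fell. They were SEC24D (−1.29), EDEM1 (−1.23), SEL1L (−1.02), EIF2AK3 (−0.98), EDEM3 (−0.82), HSPA5 (−0.74) and HERPUD1 (−0.68), and the median of the 36 was −0.17. These 7 passed in this comparison under each of the 21 alternatives run. Under vehicle the covariate gave 5 genes that fell, EDEM1, EIF2AK3, HERPUD1, HSPA5 and SEC24D, with 2.39% of all genes. It also gave SEC61B, which rose, where 4.10% of all genes rose. Under estradiol it left EDEM1, HSPA5 and SEC24D (1.02% of all genes). The covariate and the presence of astrocytes vary together, so that this fit also takes out any part of the difference that moves with the range of signal.

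**Figure D4:**
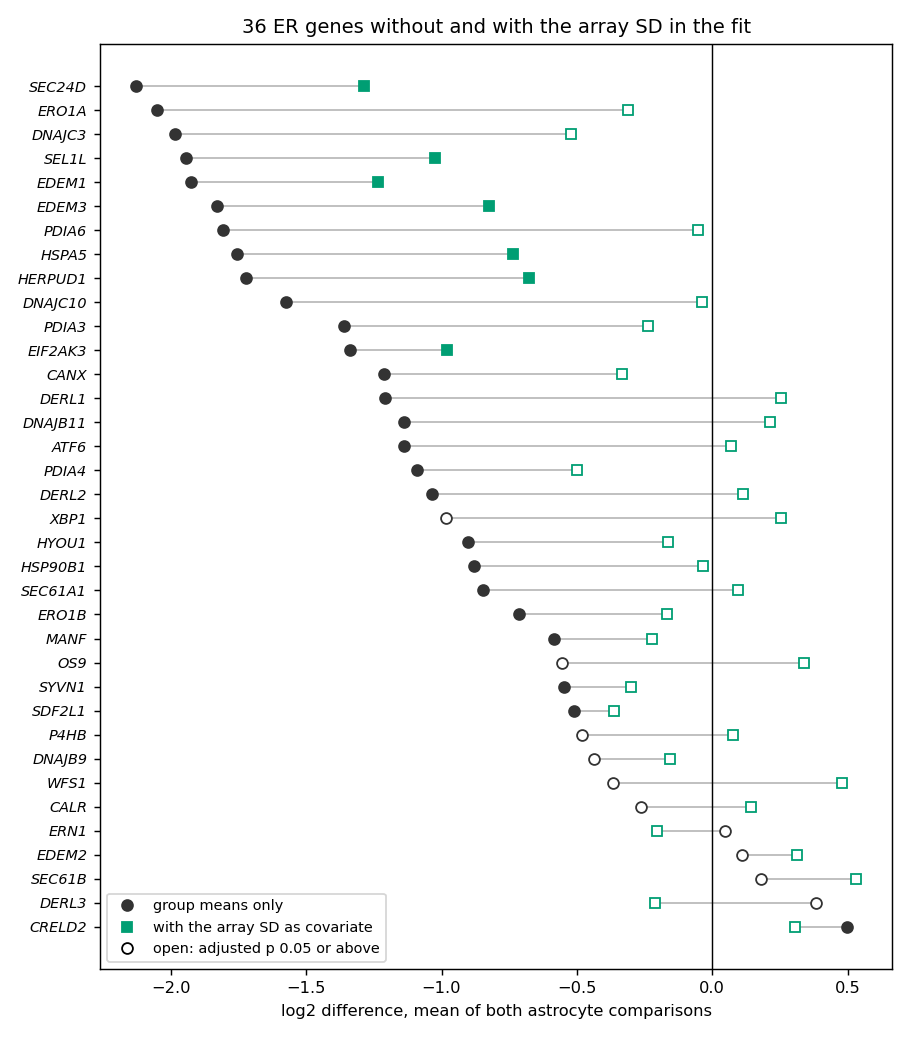
For each of the 36 genes the log2 difference in the mean of both astrocyte comparisons is plotted without (circles) and with (squares) the array SD in the fit; open symbols did not pass an adjusted p of 0.05. The 7 filled squares are SEC24D, SEL1L, EDEM1, EDEM3, HSPA5, HERPUD1 and EIF2AK3, and ATF6, DERL1, DERL2, DNAJB11 and SEC61A1 move from filled circles below 0 to open squares above it.

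Leaving out replicate 2 of estradiol with astrocytes lowered the count under estradiol and raised it under vehicle. The median of the 36 genes under estradiol went from −1.18 to −0.59, and 3 of them fell, EDEM1, HSPA5 and SEC24D, among 1.67% of all genes. Under vehicle, a comparison without that array but sharing its estimate of the spread, 21 of the 36 fell (18.1% of all genes). SEC61B rose there (15.9% of all genes). In the mean of both comparisons 26 fell (24.1% of all genes) and CRELD2 and SEC61B rose (24.8%), with a median of −0.68. Under estradiol 0 of the 36 passed when any 1 of 6 other arrays was left out (replicate 1, 2 or 3 of estradiol alone, replicate 1 or 2 of vehicle alone, or replicate 3 of estradiol with astrocytes), where from 0.0167% to 0.0724% of all genes were called. Without replicate 1 of estradiol with astrocytes 30 passed, and 51.4% of all genes did.

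Estradiol itself gave no call among the 36 genes, with or without astrocytes. Without astrocytes the differences ran from −0.15 for ERN1 to 0.19 for SEC61B, with a median of 0.049, and 0 of the 36 passed in limma (0.00% of all genes in either direction), with none at an unadjusted p under 0.05. HSPA5 averaged 10.48 ± 0.35 (SD, n = 3) in vehicle alone and 10.51 ± 0.25 in estradiol alone. SEC61B was the 1 gene whose groups did not overlap (1.94% of all genes were higher without overlap), at 8.74 ± 0.042 (SD, n = 3) against 8.93 ± 0.12, and its unadjusted p was 0.470. All 36 of the 95% intervals included 0, and 21 of them lay within 1 log2 unit of 0, so that the intervals of these 21 do not reach a 2-fold change and the remaining ones do.

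With astrocytes present, the estradiol differences ran from −0.75 for DNAJB11 (SE 0.59) to 0.58 for DERL3 (SE 0.32), with a median of −0.24 and 27 of 36 below 0. Without replicate 2 of estradiol with astrocytes the direction turned, to a median of 0.18 with 3 of 36 below 0. The median was 0.13 with both astrocyte groups lacking replicate 2. Again 0 of the 36 passed (0.00% of all genes) and none had an unadjusted p under 0.05. The groups overlapped for all 36 genes, the intervals all included 0, and 14 lay within 1 log2 unit. HSPA5 averaged 8.98 ± 0.40 (SD, n = 3) with vehicle and 8.50 ± 1.10 with estradiol, where replicate 2 at 7.25 lay well below the other 2 arrays. With the arrays weighted by arrayWeights, whose estimate did not converge, HERPUD1 passed (0.56, adjusted p = 0.0377), 1 of 36 where 6.67% of all genes passed; it was named after its value was seen. The median of the 36 in that fit was 0.069.

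Related ER genes outside the 36 were taken from 7 lists by function, also chosen with earlier results of these data known. In the mean of both comparisons 52 of their 111 genes fell and 6 rose. Of all genes 23.0% fell and 24.5% rose, and of those above the median level 37.5% fell and 11.3% rose. In the arm downstream of PERK and ATF4, 5 of 10 genes fell, with a median of −0.39. They included PPP1R15A (−1.04, SE 0.16, adjusted p = 0.0033 in limma), which restores translation, DDIT3 (−0.94, SE 0.15), which encodes the stress factor CHOP, and CHAC1 (−1.01, SE 0.21). Of 12 genes of COPII export 5 fell, with SEC24A at −1.40, SEC16A at −1.26 and SEC24B at −1.25, and the median was −0.93. Of 9 subunits of oligosaccharyl transferase, which attaches sugars to new chains, 4 fell (median −0.88), among them MAGT1 at −1.46.

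The translocon and signal peptidase list had 10 of 20 genes lower and 2 higher (median −0.76), with SEC63 at −1.95 (SE 0.38), SRP54 at −1.89 (SE 0.41) and SEC11A, a signal peptidase subunit, higher at 0.62 (SE 0.12, adjusted p = 0.00527 in limma). Of 28 other folding genes 15 fell and 3 rose (median −0.87); UGGT1, the glucosyltransferase that marks unfolded glycoproteins, fell by 1.64 and TXNDC11 rose by 1.52. Of 22 other degradation genes 10 fell (median −0.64), with MARCHF6 at −1.74, and of 10 other regulators 3 fell and ERN2, a paralogue of ERN1, rose by 1.08 (SE 0.27, adjusted p = 0.0117 in limma). The shares that fell in COPII export, oligosaccharyl transferase and other degradation genes were little above the 37.5% of genes above the median level. That of other regulators was below it, and the shares that rose were all below the 24.5% of all genes. Under vehicle 0 genes of these 7 lists passed in limma, with 27 of the 111 lower and 3 higher at an unadjusted p under 0.05. There 15.1% of all genes were lower and 13.1% higher, and 23.4% of those above the median level were lower.

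Markers of other cell types were also compared in the mean of both comparisons, where 24.5% of all genes and 37.6% of those at or below the median level rose. The mean log2 signal of 9 microglia and macrophage genes was 3.89 and 3.92 in vehicle alone and estradiol alone, against 4.46 and 4.57 with astrocytes, and 5 of the 9 were higher in the mean of both comparisons. For 7 oligodendrocyte genes it was 4.67 and 4.66 against 5.17 and 5.24 (5 higher), and for 12 astrocyte genes 4.83 and 4.84 against 4.93 and 5.01 (5 higher, 2 lower). The astrocyte genes with the smallest p went both ways. SLC1A3, a glutamate transporter, fell (−0.94, adjusted p = 0.00735 in limma), GFAP, the classical astrocyte marker, rose (0.95, adjusted p = 0.0125), and so did the connexin gene GJB6 (0.86, adjusted p = 0.0134). The other astrocyte gene that fell was GJA1 (−0.64, adjusted p = 0.0205), which encodes a connexin. Of 7 neuronal genes 3 were higher and 1 lower. The 3 of 7 neuronal and 5 of 12 astrocyte genes that rose were near the 37.6% of genes at or below the median level. Of 8 luminal and epithelial genes 2 were higher, and of 8 genes of fibroblasts and endothelium 1 was higher. These last 2 counts were near or under the share of all genes. The 8 genes that define the 231BR and MDA-MB-231 cells averaged 9.51 and 9.52 without astrocytes and 9.23 and 9.08 with them. Of these, 3 were lower (EGFR at −1.45, CD44 at −0.93 and VIM at −0.48) and S100A4 was higher (0.62, adjusted p = 0.0165 in limma). The 3 of 8 were near the 37.5% of genes above the median level that fell (23.0% of all genes). ESR1, the gene of estrogen receptor alpha, a protein the parental line lacks, averaged 3.61 and 3.45 without astrocytes and 4.21 and 4.45 with them, and rose in the mean of both comparisons (0.80, SE 0.25, adjusted p = 0.0256 in limma). The astrocytes were mouse cells and the arrays are made for human genes, so how far each probe set reads mouse RNA is not known. Arrays give no true zero, and the part of these cell types in the results on the 36 genes was not tested.

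Differences with astrocytes were also listed by promoter element. In the mean of both comparisons the 7 genes with an ERSE had a median of −0.88, from −1.76 for HSPA5 to 0.50 for CRELD2, and the 25 searched genes without one had a median of −1.04. Those without an ERSE include HYOU1, SDF2L1, HERPUD1 and DNAJC10, which hold an ERSE-II or the core of the unfolded protein response element. Among all genes on the arrays with a searched promoter, the 16 with an ERSE, which include these 7, had a median of −0.73, and the 13848 without had a median of 0.0039. These are descriptions with no test.

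Longer genes among the 36 had the lower values. Spearman's rho between gene length in RefSeq and the log2 difference in the mean of both comparisons was −0.525 over the 36 genes, given as a description since genes are not independent replicates, and −0.330 over 17930 genes. The 18 shorter genes, from 2.0 to 25.5 kb, had a median of −0.72, and the 18 longer ones, from 26.8 to 198 kb, a median of −1.35. Genes up to the median length of all genes had a median of 0.27 and longer ones −0.27. HSPA5, at 6.49 kb, and HERPUD1 were short genes with low values, and ERN1, at 91.0 kb, was a long one near 0.

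**Figure D5:**
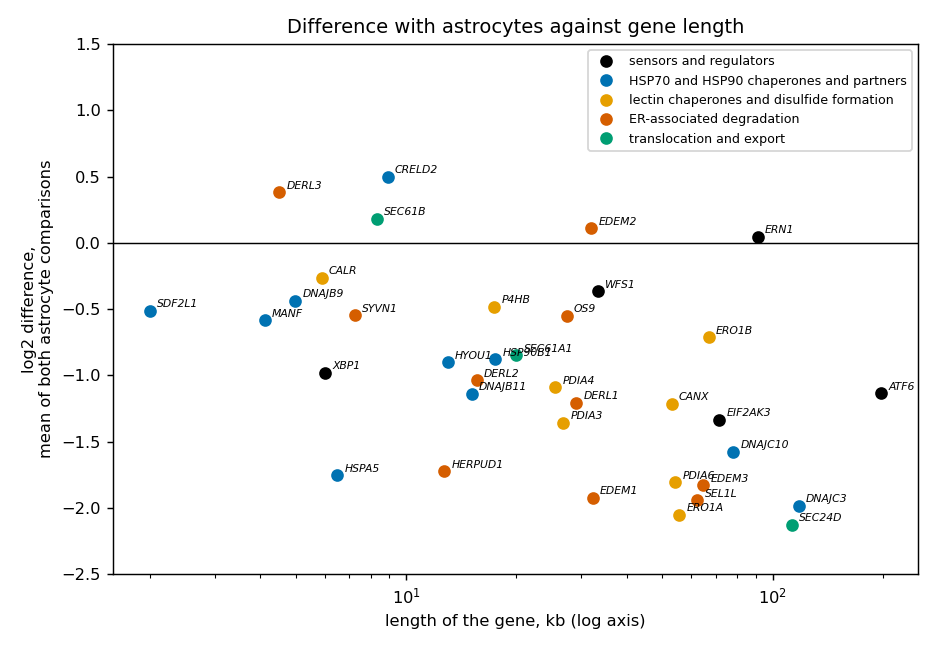
The log2 difference in the mean of both astrocyte comparisons is plotted against gene length in kb (log axis) for the 36 genes, coloured by role. Genes over 26.8 kb lie mostly between −1 and −2.13, apart from ERO1B, OS9, WFS1, EDEM2 and ERN1, while HSPA5 and HERPUD1 are short genes near −1.75.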

How the data were processed

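RNA of 231BR cells was labelled with biotin and hybridised to 12 Affymetrix Human Gene ST arrays, per the labels. The authors deposited log2 signals per probe set. RMA and Partek are named, with no version or role, per the submitters' processing notes. The SD over all probe sets ran from 1.62 to 2.22 between arrays, so the deposited signals do not look quantile-normalized over the probe sets. The table holds 33297 probe sets. A probe table names 21236 of them, 19181 with 1 gene symbol, 2055 with several; 12061 are not in it. The 895 genes with several probe sets were represented by the one with the highest mean over 12 arrays, giving 17958 genes, with dim genes kept.

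The fit was made in limma 3.58.1 (R 4.3.3; lmFit on 4 group means over all 12 arrays, contrasts.fit, eBayes, two-sided, 8 residual degrees of freedom). In each of 6 comparisons p-values were adjusted over the 17958 genes (Benjamini-Hochberg) and called under 0.05. For 3 arrays against 3, the smallest two-sided p of an exact permutation test is 0.1. Alternatives were a block for the replicate number, quantile normalization, centring on array medians, the array SD as a covariate, only genes above the median level, probe sets averaged per gene, a trended and robust eBayes, arrayWeights, only the groups compared, replicate 2 of both astrocyte groups left out, and each array left out in turn. The labels do not say what a replicate number marks. After group means were removed, arrays of the same number correlated above 0.1 in every pair only between the 2 astrocyte groups (r = 0.789, 0.756 and 0.214), so a block over these 6 arrays was added after the data were seen.

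The members, their role groups and the other lists were chosen with earlier results of these data known. Values on every array are given for the 4 genes of each role group with the smallest p in the mean of both astrocyte comparisons, for the sensors, and for genes whose direction opposes their group; of other lists, up to 3 genes with the smallest p are named. Promoters and gene lengths are from RefSeq (GRCh38.p14). Scripts were tested on simulated data with 17958 genes for astrocytes against none under estradiol, where a log2 change of 1 was recovered for 19.3% and of 2 for 77% of changed genes, with 4.67 false calls on average over 3 draws.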

Additional observations from a re-analysis of the deposited data

How the results depend on the processing

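For estradiol against vehicle and for the interaction, 0 of the 36 genes passed under every alternative run, except that arrayWeights, which did not converge, called 1 with astrocytes (HERPUD1), and the replicate block over the 6 astrocyte arrays also gave 0. Under vehicle, where 0 passed, astrocytes against none gave 10 with the replicate block (14.4% of all genes), 6 with the array SD as a covariate (6.49%), 30 with arrayWeights (69.3%), 12 with only the groups compared (8.88%) and 7 with both astrocyte groups lacking replicate 2 (5.59%), and from 0 to 22 with each array left out in turn. Under estradiol, where 11 passed, the counts were 24 with the replicate block (37.3% of all genes), 4 with quantile normalization (3.02%), 3 with the array SD (2.61%), 33 with arrayWeights (82.3%) and 0 with only the groups compared, and from 0 to 30 with each array left out. In the mean of both comparisons, where 26 passed, the array SD left 7, and leaving out each array gave from 17 to 31. The share of all genes called moved with these counts as arrays were left out. It was 34% at the 22 under vehicle and 51.4% at the 30 under estradiol. In the mean of both comparisons it was 26.6% or 29.1% at 17 and 63.1% at 31. Over all genes the mean of both comparisons called 8528, and 2584 with the array SD. For genes called in the main fit, 787 values of single genes under an alternative were compared. Genes not called there, of which some also turned (such as XBP1 and WFS1), were not counted. Of the 787, 579 kept their direction and call, and 203 kept the direction and lost the call. In the mean of both comparisons 5 turned with the array SD: ATF6 (0.070), DERL1 (0.25), DERL2 (0.11), DNAJB11 (0.22) and SEC61A1 (0.095). The cause was not tested. The mean level of the 36 genes in estradiol alone was 7.86, and 7.68 after quantile normalization. Signal over background is not part of the files used, so how dim a probe set may be was not tested.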
